A study of Mus musculus with 4 samples.

Results

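The genes described here are 40 genes of DNA replication and mitosis, chosen as a fixed list by their known function and followed through T, innate lymphoid, B lineage, myeloid, stromal and epithelial cells of the mouse small intestine. This list and the pathway lists below were drawn up with earlier results of these data known. Counts of their members are thus not independent of these data. All 40 were among the 31,950 gene IDs that both libraries listed, and 15 of them act mainly in S phase (DNA synthesis) and 25 mainly in G2 and mitosis (G2/M). Lamina propria cells of *A20ZF7* and WT mice were profiled by single-cell RNA-Seq, 1 library per genotype, each pooled from 2 mice at 12 weeks of age, with 60,000 cells collected per genotype. *A20ZF7* mice are homozygous for a germline knock-in in zinc finger 7 of A20 (*Tnfaip3*), a protein that restrains NF-κB signaling, and the mutation removes binding of linear (M1) ubiquitin. Every cell of those mice carries the mutation, so a value in 1 cell class cannot be tied to the mutation in that class alone, and the counts do not read the mutation itself. Cells had been negatively selected for T cells and innate lymphoid cells (ILCs), so other cell types are those that escaped the selection. With 1 library per genotype no difference has a replicate check or a test, and the 95% intervals given in parentheses or after a ratio cover counting error alone.

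A cell replicates its DNA once per division. The MCM helicase is loaded onto origins ahead of S phase, ribonucleotide reductase and thymidylate synthase make the nucleotides, and PCNA clamps the polymerases to DNA. Cyclin A and cyclin B with CDK1 then drive entry into mitosis, when condensed chromosomes are attached through centromeres and kinetochores to the spindle, and the anaphase promoting complex ends mitosis by marking cyclin B and securin for destruction. Resting lymphocytes hold little of these transcripts and activated T cells are known to induce them before they divide, while in the gut epithelium dividing cells are known to sit in the crypts.

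The promoters show how the list falls into its S and G2/M members, which belong to gene groups long known as targets of E2F factors and of the DREAM complex. Both strands were searched in windows from 250 bases before to 50 bases after the start. A gene counted when any of its windows held the motif. An E2F motif (TTTCCCGC or TTTGGCGC) was found for 6 of 13 S genes, 0 of 21 G2/M genes and 1.80% of all 27,025 genes with a promoter entry. A CHR motif (TTTGAA) was found for 1 of the 13 S genes, 15 of the 21 G2/M genes and 20.2% of all these genes. The CCAAT box (CCAAT) was found for 10 of the 13, 19 of the 21 and 41.1% of all these genes. A match is a description of letters and not a bound site, and 34 of the 40 genes had an entry in the RefSeq promoter table. The 200 bases upstream of the start are printed 5′ to 3′ for the 3 S genes with an E2F motif and the 3 G2/M genes with a CHR motif that had the most UMIs in T-like barcodes among those whose motif lay in these 200 bases, from RefSeq on build GRCm38.p6, with the E2F or CHR motif of that group and all CCAAT boxes in capitals (GCGCCAAA, GCGGGAAA, TTCAAA and ATTGG are the same motifs read on the other strand).
Mcm6 (chr1:128359706-128359905, minus strand): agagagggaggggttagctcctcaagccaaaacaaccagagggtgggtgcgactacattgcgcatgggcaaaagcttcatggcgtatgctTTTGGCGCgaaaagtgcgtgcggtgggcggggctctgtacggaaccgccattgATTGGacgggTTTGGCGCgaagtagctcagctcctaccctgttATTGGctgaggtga
Mcm5 (chr8:75109309-75109508, plus strand): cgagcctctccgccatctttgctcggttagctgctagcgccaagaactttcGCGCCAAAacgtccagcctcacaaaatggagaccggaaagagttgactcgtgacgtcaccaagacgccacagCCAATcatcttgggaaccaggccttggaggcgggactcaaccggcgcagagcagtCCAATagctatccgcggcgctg
Mcm7 (chr5:138171884-138172083, minus strand): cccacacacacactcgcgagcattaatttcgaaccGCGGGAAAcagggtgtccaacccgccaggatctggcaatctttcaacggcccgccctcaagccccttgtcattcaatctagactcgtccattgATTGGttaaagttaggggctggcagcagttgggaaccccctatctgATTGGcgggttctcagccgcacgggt
Hmgb2 (chr8:57511643-57511842, plus strand): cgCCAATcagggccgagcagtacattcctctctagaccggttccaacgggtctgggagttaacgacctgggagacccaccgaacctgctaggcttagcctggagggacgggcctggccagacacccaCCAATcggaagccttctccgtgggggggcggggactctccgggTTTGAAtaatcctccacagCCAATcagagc
Top2a (chr11:99024190-99024389, minus strand): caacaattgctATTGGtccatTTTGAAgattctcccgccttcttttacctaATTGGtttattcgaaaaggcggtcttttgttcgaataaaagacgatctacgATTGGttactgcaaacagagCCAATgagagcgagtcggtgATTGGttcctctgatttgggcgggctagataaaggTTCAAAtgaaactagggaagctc
Mki67 (chr7:135716380-135716579, minus strand): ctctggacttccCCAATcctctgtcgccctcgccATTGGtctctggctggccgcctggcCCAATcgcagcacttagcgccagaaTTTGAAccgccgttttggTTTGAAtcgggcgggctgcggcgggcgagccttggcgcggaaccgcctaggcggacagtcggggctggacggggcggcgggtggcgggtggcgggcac

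Barcodes with at least 500 UMIs were sorted into classes by marker genes after clustering that left the 40 genes out. Over both genotypes 49,622 barcodes fell into a class, and 1,610 WT and 5,636 *A20ZF7* barcodes stayed in clusters without one. T-like barcodes numbered 4,616 in WT and 12,758 in *A20ZF7*, ILC-like 4,556 and 4,080, plasma-like 424 and 969, myeloid-like 487 and 1,610, stromal-like 7,794 and 11,744 and epithelial-like 505 and 79. The B lineage class held plasma-like barcodes alone, with *Igha*, the IgA heavy chain, at 166,365 and 137,807 CPM. Each class led the others in its own markers, apart from 2 lists at low level. Mast cell markers were at 1.60 CPM in WT and 31.9 CPM in *A20ZF7* myeloid-like barcodes, against 54.6 and 77.8 CPM in ILC-like barcodes. Glia markers in *A20ZF7* were at 3.78 CPM in stromal-like and 5.35 CPM in epithelial-like barcodes. Markers of T cells were found at lower level in every other class of both libraries. The 2 libraries were counted on gene lists that differ, in 33,696 and 32,285 IDs, so genotype and annotation cannot be told apart, and 1,167 cell barcodes passed in both libraries.

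The 40 genes together were higher in *A20ZF7* than in WT in each of the 6 classes. Their level is given as summed UMIs scaled to 1,000,000 UMIs of the class (CPM). In T-like barcodes it was 1,608 CPM in WT (1,567–1,649.6) and 3,368 CPM in *A20ZF7* (3,336–3,399.6), a ratio of 2.09 (2.04–2.15). ILC-like barcodes stood at 835 and 1,563 CPM, a ratio of 1.87 (1.80–1.95). With the level of barcodes with 51 to 200 UMIs taken off, 262 and 5.91 CPM were left, so the ratio turned under this setting. Both genotypes lay below barcodes with 1 to 50 UMIs. The whole level was taken off, though its part in the class was not tested, so this cannot decide whether the ratio holds. No class held more than the T-like class in either genotype, and the ILC-like class was the next highest in WT but not in *A20ZF7*.

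Myeloid-like barcodes had 687 CPM in WT and 1,732 CPM in *A20ZF7*, a ratio of 2.52 (2.28–2.79), and stromal-like barcodes 409 and 1,032 CPM, a ratio of 2.52 (2.43–2.61). Epithelial-like barcodes had 296 CPM (273–320.4) and 1,124 CPM (977–1,287), a ratio of 3.80 (3.23–4.45), and plasma-like barcodes 219.7 and 1,291 CPM, a ratio of 5.88 (5.23–6.62). With barcodes that held at least 2 marker UMIs of another class removed, the epithelial-like ratio was 1.67 (0.844–2.99), an interval that takes in 1. With naming by marker UMIs alone it was 1.88 (1.41–2.47). The order in WT was T-, ILC-, myeloid-, stromal-, epithelial- and plasma-like, with no overlap of neighboring intervals. In *A20ZF7* it was T-, myeloid-, ILC-, plasma-, epithelial- and stromal-like, and there the epithelial-like interval overlapped those of both neighbors.

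The same genes were read from barcodes with fewer UMIs than the limit for cells, which can sample RNA that is free in the suspension. Those with 51 to 200 UMIs may also include cells with few UMIs, and what these barcodes hold was not tested. Barcodes with 1 to 50 UMIs had 1,215 CPM in WT and 2,393 CPM in *A20ZF7*, a ratio of 1.97 (1.85–2.10), and those with 51 to 200 UMIs had 573 and 1,557 CPM, a ratio of 2.72 (2.52–2.94). The T-like level was above that of the 1 to 50 UMI barcodes, 1.32-fold (1.26–1.40) in WT and 1.41-fold (1.34–1.48) in *A20ZF7*. The other 5 classes were below it in both genotypes, from 0.181-fold in WT plasma-like to 0.724-fold in *A20ZF7* myeloid-like barcodes. The ratios of 1.97 and 2.72 in these barcodes lie near those of the T-, ILC-, myeloid- and stromal-like classes, the T-like ratio of 2.09 included, and below those of the epithelial- and plasma-like classes. The part of free RNA in the class ratios was not tested.

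**Figure D1:**
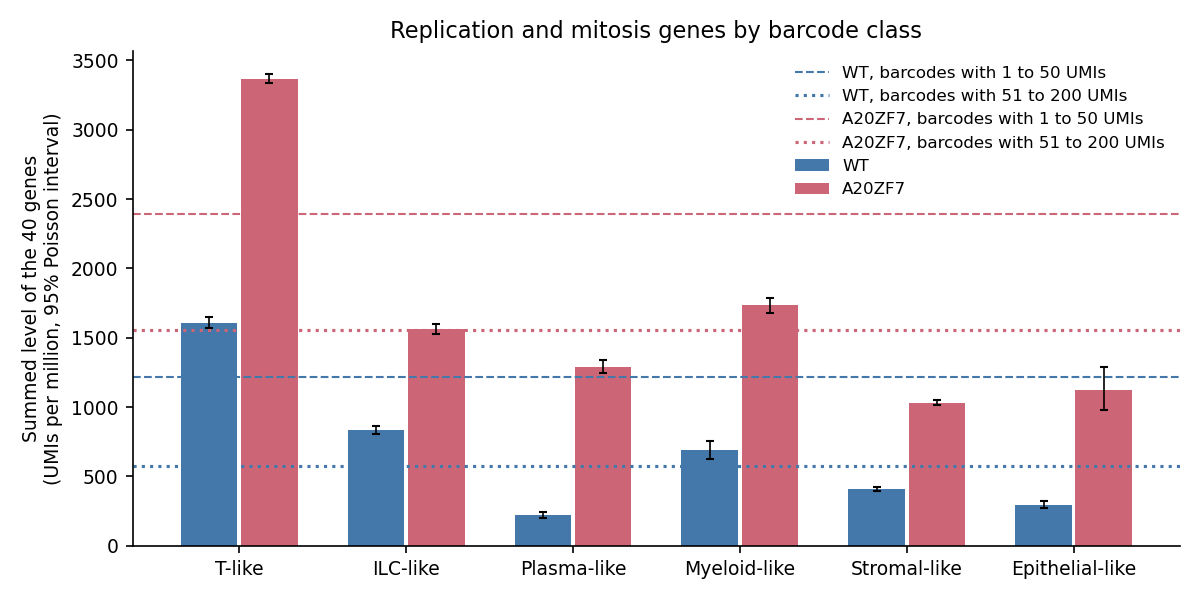
Summed level of the 40 replication and mitosis genes in CPM for each cell class, with bars for the 1 library per genotype and whiskers for exact 95% Poisson intervals, and horizontal lines for barcodes with 1 to 50 UMIs (dashed) and 51 to 200 UMIs (dotted). Each class is higher in *A20ZF7*, and the T-like class alone lies above the level of barcodes with 1 to 50 UMIs of its genotype.

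In T-like barcodes all 40 genes were higher in *A20ZF7*, and 39 of the 40 counting intervals lay above 1. The median ratio was 2.90, from 1.28 for *Pcna* to 5.01 for *Ccnb1*. Of the 28 members with enough UMIs to be compared with all other genes, 20 were at least 2-fold higher and 0 at least 2-fold lower, where 2.55% of 6,083 genes were at least 2-fold higher and 1.51% at least 2-fold lower. The median log2 ratio was 1.36 for the 28 members and 0.04 for all 6,083 genes. Members and all other genes met the same limit, set on the mean of both libraries, here and in the other classes. A gene below 20 CPM in WT could thus enter through its *A20ZF7* level alone, which favors a call of higher. Of the 20 members past 2-fold, *Rrm2*, *Uhrf1*, *Ccna2*, *Cdk1*, *Cenpe*, *Cenpf*, *Cdca8*, *Tpx2* and *Nusap1* were below 20 CPM in WT and entered this way. The counts of members are therefore descriptive. The largest cluster of the class differed between the genotypes. In WT it held 47.1% of T-like barcodes and was led by defensin genes of Paneth cells, with *Cd28* and *Il7r* further down among its leading genes, and in *A20ZF7* it held 34.2% and was led by *Il17a* and *Il17f*.

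The licensing genes summed to 226 CPM in WT barcodes and 416 CPM in *A20ZF7* barcodes, a ratio of 1.84 (1.71–1.98). Subunits of the MCM helicase differed in their ratios. *Mcm3* was at 34.9 and 80.03 CPM, a ratio of 2.29 (1.90–2.78), and *Mcm6* at 49.0 and 109 CPM, a ratio of 2.23 (1.90–2.62). *Mcm4* and *Mcm7* had ratios of 1.45 (1.21–1.75) and 1.46 (1.21–1.77), so their intervals lay below those of *Mcm3* and *Mcm6*, with *Mcm2* at 1.51 and *Mcm5* at 1.81. *Cdc6*, which loads the helicase, was at 2.49 and 10.1 CPM, a ratio of 4.06 (2.08–9.09).

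Genes of nucleotide supply and DNA synthesis stood at 256 and 509 CPM, a ratio of 1.99 (1.85–2.13). The sliding clamp *Pcna* was at 117 and 149 CPM, a ratio of 1.28 (1.15–1.42), while *Pclaf*, which encodes a PCNA-binding factor, was at 55.4 and 167 CPM, a ratio of 3.01 (2.60–3.49). *Rrm2*, the ribonucleotide reductase subunit whose level follows S phase, had a ratio of 3.18 (2.31–4.49), against 2.11 (1.72–2.62) for the more constant subunit *Rrm1*. Thymidine kinase (*Tk1*) had a ratio of 2.69, the maintenance methylation cofactor *Uhrf1* 2.51 and thymidylate synthase (*Tyms*) 1.70. *Pcna* and *Tyms* thus had lower ratios than the other genes of this role.

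The cyclins and their kinase stood at 78.7 and 203 CPM, a ratio of 2.58 (2.28–2.93). *Cdk1*, the mitotic kinase, was at 10.2 and 36.2 CPM, a ratio of 3.54 (2.53–5.09). Cyclin B1 (*Ccnb1*) had 11 UMIs in WT and 196 in *A20ZF7*, 3.05 and 15.3 CPM, with an interval of 2.74 to 10.2 around its ratio of 5.01. Cyclin A2 (*Ccna2*) and cyclin B2 (*Ccnb2*) had ratios of 2.92 and 2.99, and *Cks2*, a CDK subunit, 2.13. Cyclin E2 (*Ccne2*), the cyclin of S phase entry, was the member whose interval took in 1, at 3.88 and 6.16 CPM (ratio 1.59, 0.893–3.04).

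Among genes of chromosome structure, *Mki67*, the gene of the Ki67 antigen, was at 34.9 and 121 CPM, a ratio of 3.47 (2.90–4.20). Topoisomerase IIα (*Top2a*), which untangles sister chromatids, was at 50.4 and 188 CPM, a ratio of 3.73 (3.21–4.37). *Hmgb2*, a chromatin protein that resting cells also hold, was at 689 and 1,134 CPM, a ratio of 1.65 (1.58–1.72). *Hmgb2* gave 42.9% of the members' UMIs in WT and 33.7% in *A20ZF7*, and without it the summed ratio in T-like barcodes was 2.43 (2.35–2.52).

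The centromere, kinetochore and checkpoint genes stood at 114 and 338 CPM, a ratio of 2.97 (2.69–3.30). *Cenpf*, a kinetochore protein of G2 and mitosis, was at 14.1 and 59.9 CPM, a ratio of 4.24 (3.19–5.75), and survivin (*Birc5*), of the chromosomal passenger complex, at 21.3 and 82.4 CPM, a ratio of 3.86 (3.06–4.93). The other passenger genes *Aurkb* and *Cdca8* had ratios of 3.52 and 3.03, the motor *Cenpe* 3.66, and the checkpoint kinases *Bub1* and *Bub1b* 2.68 and 2.58. *Cenpa*, the centromeric histone, had the lowest ratio of the role at 1.91 (1.61–2.29).

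Spindle genes stood at 128 and 364 CPM, a ratio of 2.84 (2.58–3.13). Polo-like kinase 1 (*Plk1*) had a ratio of 4.10 (2.29–8.09), the microtubule binders *Nusap1* and *Hmmr* 3.90 and 3.70, *Tpx2* and its kinase *Aurka* 3.55 and 3.30, and the motor *Kif11* 2.62. Stathmin (*Stmn1*), which destabilizes microtubules, was at 69.0 and 166 CPM, a ratio of 2.41 (2.12–2.76). The anaphase promoting complex was read by its activator *Cdc20*, with a ratio of 2.88 (1.72–5.16), and its ubiquitin-conjugating enzyme *Ube2c*, at 26.0 and 80.03 CPM with a ratio of 3.07 (2.49–3.84). Summed over the list, the 15 S genes had a ratio of 1.92 (1.82–2.02) and the 25 G2/M genes 2.17 (2.10–2.24). *Hmgb2* counts on the G2/M list and gave 42.9% of all members' UMIs in WT and 33.7% in *A20ZF7*, at a lower ratio than that list. The G2/M sum was not read without *Hmgb2*, so the distance between the S and G2/M ratios rests in part on this gene.

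**Figure D2:**
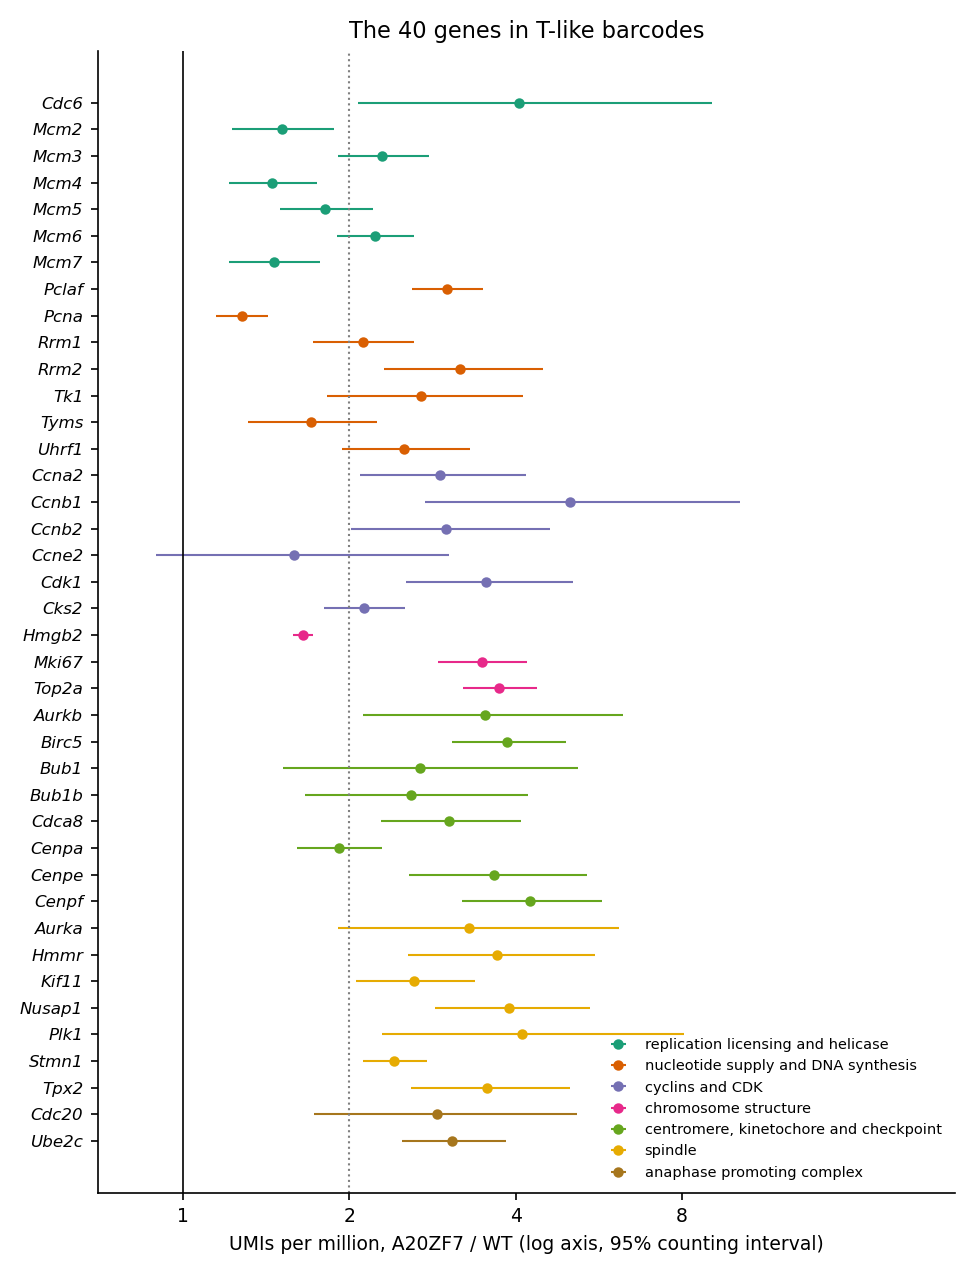
Ratio of each of the 40 genes in T-like barcodes, *A20ZF7* over WT on a log axis, colored by role, with a solid line at 1 and a dotted line at 2; bars are 95% counting intervals of the 1 library per genotype. All points lie above 1, from 1.28 for *Pcna* to 5.01 for *Ccnb1*, and the interval of *Ccne2* is the one that takes in 1.

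Counted one gene at a time, the T-like level was above that of the 1 to 50 UMI barcodes for 21 of 40 genes in WT and 32 of 40 in *A20ZF7*. These counts rest on the values alone, and many of the intervals take in 1. In WT *Uhrf1* was at 3.26-fold (1.56–7.87) of that level and *Pcna* at 2.42-fold (1.88–3.16). *Mki67* was there at 0.916-fold (0.664–1.28) and *Top2a* at 1.03-fold (0.779–1.37). In *A20ZF7*, *Mki67* was at 1.15-fold (0.920–1.45), an interval that takes in 1, and *Top2a* at 1.42-fold (1.17–1.75). *Rrm1* (0.903-fold, 0.683–1.22) and *Ube2c* (0.939-fold, 0.733–1.22) were among the 8 below that level. T-like barcodes held the highest level of any class for 35 of the 40 genes in WT and 39 in *A20ZF7*.

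A level summed over a class does not say whether a few barcodes hold many of these transcripts or many hold a few. Each barcode was therefore thinned at random to 500 UMIs, and a barcode was called dividing-like when it then held UMIs of 3 or more of the 40 genes. Among T-like barcodes 2.40% (1.98–2.89, 111 of 4,616) were dividing-like in WT and 12.7% (12.2–13.3, 1,625 of 12,758) in *A20ZF7*, a ratio of 5.30 (4.38–6.40). The limit cuts through a range, since 242 WT and 1,221 *A20ZF7* T-like barcodes held exactly 2 members and 40 and 501 exactly 3. Thinning itself grades such counts, so they cannot decide whether dividing-like barcodes are a separate group of cells. With 2 members as the limit the shares were 7.65% and 22.3%, a ratio of 2.92 (2.63–3.24), and with 5 they were 1.13% and 5.41%. The most members in 1 thinned T-like barcode was 10 in WT and 12 in *A20ZF7*.

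**Figure D3:**
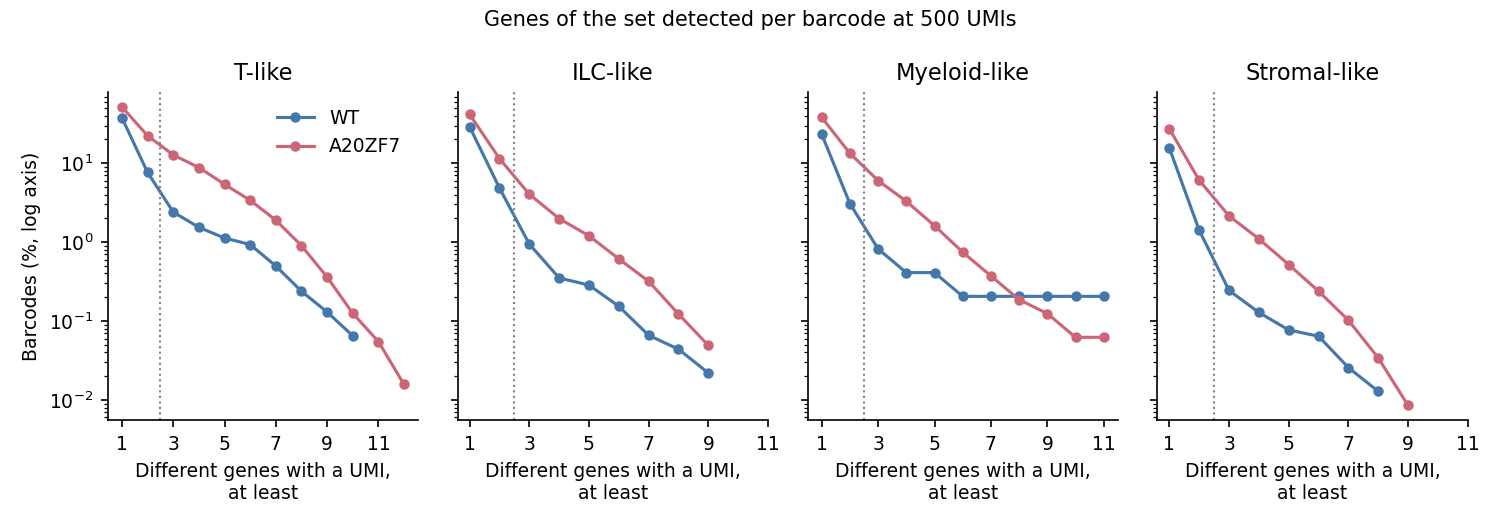
Share of T-, ILC-, myeloid- and stromal-like barcodes (percent, log axis) that hold at least the given number of the 40 genes after thinning to 500 UMIs, WT in blue and *A20ZF7* in red, with a dotted line at the limit of 3. In T-like barcodes the shares at the limit are 2.40% and 12.7%, and *A20ZF7* lies above WT at each number of genes, while the WT myeloid-like line ends in 1 barcode.

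Without thinning, 4.55% of WT and 21.2% of *A20ZF7* T-like barcodes passed the same limit, with median depths of 674 and 819 UMIs. Dividing-like T barcodes held 25.2% of the class's member UMIs in WT and 58.4% in *A20ZF7*, and the level outside them was 914 and 1,232 CPM. They were also the deeper barcodes, with a median of 1,534 UMIs against 671 for other T-like barcodes in WT and 1,336 against 776 in *A20ZF7*. Among T-like barcodes of 500 to 699 UMIs 0.740% and 3.75% were dividing-like, a ratio of 5.07 (3.16–8.12), and among those of 700 to 999 UMIs 1.14% and 8.05%, a ratio of 7.09 (4.31–11.7). Among the 188 WT and 1,700 *A20ZF7* barcodes with at least 1,500 UMIs the shares were 30.9% (24.3–38.0) and 39.4% (37.0–41.7), a ratio of 1.28 (1.02–1.59). Of the T-like class, 4.07% of WT and 13.3% of *A20ZF7* barcodes were that deep, so whole-class shares rest also on the mix of depths. Over all barcodes with at least 1,000 UMIs the T-like share ratio was 2.20 (1.77–2.74) and the level ratio 1.39 (1.34–1.45).

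Members kept company with each other in the same barcodes. For each gene, its thinned level was compared between T-like barcodes with 3 or more other members and the remaining T-like barcodes. The median over genes was 40.6-fold in WT, over the 38 genes with UMIs on both sides, and 11.4-fold in *A20ZF7*. Many of the WT values rest on few UMIs. *Ccnb1*, which had the value of the WT median, held 1 UMI on each side, with an interval of 0.517 to 3,186. The medians therefore cannot say by how much the genotypes differ. *Mki67* was at 458.7 and 11.1 CPM in WT, a 41.3-fold difference (22.8–75.0), and at 448 and 46.8 CPM in *A20ZF7*, 9.58-fold (8.14–11.3). *Mcm6* differed least, 3.01-fold (1.08–6.80) in WT and 2.32-fold (1.91–2.80) in *A20ZF7*, and *Pcna* differed 5.25-fold and 3.79-fold. *Mki67*, then, was at about the same level in both genotypes inside such barcodes and at different levels outside them.

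The 111 WT and 1,625 *A20ZF7* dividing-like T barcodes were also split by which list led. More S than G2/M genes were found in 30.6% (22.2–40.1) of them in WT and 16.9% (15.1–18.8) in *A20ZF7*. Members of both lists were found together in 78.4% and 73.5%. Among ILC-like dividing-like barcodes more S than G2/M genes were found in 46.5% (31.2–62.3) of 43 in WT and 26.1% (19.5–33.5) of 165 in *A20ZF7*. *Hmgb2* counts on the G2/M list, and its part in these shares was not tested.

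By cluster, dividing-like barcodes were densest in the T-like cluster led by *Top2a*, *Mki67* and the histone gene *Hist1h2ap*, with 62.0% (51.2–71.9) of 92 WT and 67.6% (64.9–70.1) of 1,301 *A20ZF7* barcodes. It was 1.99% of WT and 10.2% of *A20ZF7* T-like barcodes. Its level of the 40 genes was 11,374 CPM for WT and 9,748 CPM for *A20ZF7*, the one cluster of the T-like class with the higher level in WT. Clustering had left the 40 genes out but kept other genes of the cell cycle, such as histones. In the cluster led by the cytokine genes *Il17a* and *Il17f*, 7.39% (4.19–11.9) of 203 WT and 10.8% (9.90–11.8) of 4,357 *A20ZF7* barcodes were dividing-like, and these intervals overlap. In the cluster with *Foxp3*, the regulatory T cell factor, the shares were 1.61% of 310 and 5.58% of 2,260, in that with *Ccl5* and *Cd8a* 1.25% of 1,838 and 2.99% of 2,306, and in that with *Cd28* and *Il7r* 0.506% of 2,173 and 3.16% of 2,534. The last cluster is the one led by defensin genes, and without it the T-like share ratio was 3.69 (3.03–4.50) and the level ratio 1.75 (1.69–1.80).

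**Figure D4:**
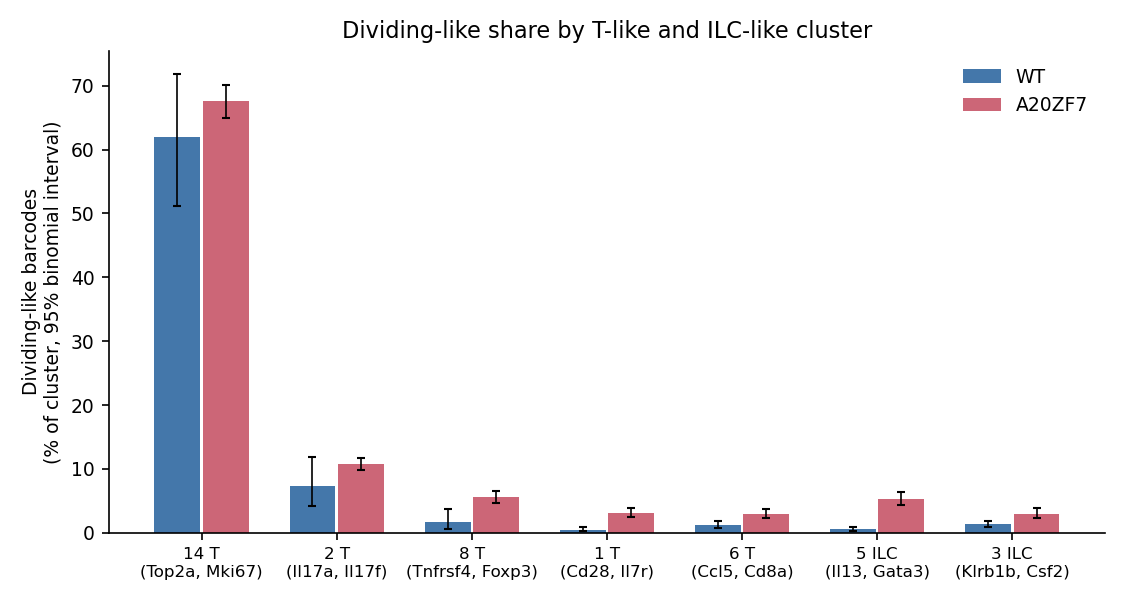
Share of dividing-like barcodes (bars, percent of the cluster) in each T-like and ILC-like cluster, WT and *A20ZF7*, with exact 95% binomial intervals. The share is higher in *A20ZF7* in each cluster, from 62.0% and 67.6% in the cluster led by *Top2a* and *Mki67* to 0.506% and 3.16% in that with *Cd28* and *Il7r*, and the intervals overlap in the first and in the *Il17a* cluster.

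Transcripts of T cell subsets were compared between dividing-like and other T barcodes at equal depth. *Il17a* was at 360.4 against 245 CPM in WT, 1.47-fold (0.891–2.29), and at 1,863 against 2,110.5 CPM in *A20ZF7*, 0.883-fold (0.836–0.932). *Il22* was 2.82-fold (1.74–4.34) higher in dividing-like barcodes of WT and 1.20-fold (1.09–1.32) in *A20ZF7*. *Cd8b1*, the CD8β chain, was 0.694-fold (0.187–1.80) and 0.523-fold (0.366–0.728), and *Trdc*, the δ chain constant region, 0.564-fold (0.0676–2.07) and 0.311-fold (0.123–0.657). Summed T cell markers were at 4,288 CPM in dividing-like and 4,573 CPM in other T barcodes of WT, and at 3,906 and 4,355 CPM in *A20ZF7*.

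Further genes of the pathway were read from lists that did not include the 40. Of 23 other replication genes, 10 had enough UMIs in T-like barcodes, 2 were at least 2-fold higher in *A20ZF7* and 0 lower. These were the chromatin remodeler *Hells*, at 40.7 and 92.7 CPM (ratio 2.28, 1.92–2.72), and DNA ligase I (*Lig1*), at 34.3 and 77.5 CPM (2.26, 1.87–2.74). Of 25 other mitosis genes, 7 had enough UMIs and 4 were at least 2-fold higher, the condensin subunits *Smc2* (2.06) and *Ncapd2* (2.34), the spindle midzone protein *Prc1* (3.36) and the passenger protein *Incenp* (2.35). These 2 of 10 and 4 of 7 genes stand beside the 2.55% of all genes. Of them, *Incenp* (18.8 CPM in WT), *Prc1* (16.6 CPM) and *Ncapd2* (19.9 CPM) were below 20 CPM in WT and entered through their *A20ZF7* level.

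Of 12 E2F and G1 cyclin genes, 5 had enough UMIs and 2 were at least 2-fold higher, the G1 kinase *Cdk6*, at 83.9 and 187 CPM (ratio 2.22, 1.97–2.52), and *E2f3* (2.05, 1.53–2.79). *E2f3*, at 14.7 CPM in WT and 30.1 CPM in *A20ZF7*, also entered through its *A20ZF7* level. Of 12 brakes on division, 10 had enough UMIs and 0 were past 2-fold in either direction. Among genes picked after their values were seen, securin (*Pttg1*) went the other way from the mitosis genes, at 112 and 63.7 CPM (ratio 0.570, 0.505–0.643). The D cyclins *Ccnd2* and *Ccnd3*, which act in G1, had ratios of 0.781 and 0.728, and the brakes *Btg2* and *Cdkn1b* 0.557 and 0.840. Inside dividing-like T barcodes *Ccnd2* was at 0.539-fold (0.268–0.969) of its level in other T barcodes in WT and 0.581-fold (0.487–0.689) in *A20ZF7*, and *Pttg1* at 0.730-fold (0.235–1.72) and 0.651-fold (0.449–0.917).

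Outside these lists, 290 genes had enough UMIs in dividing-like T barcodes of both genotypes and UMIs in other T barcodes. Genes with Gm-number or Rik names and ribosomal and mitochondrial genes had been left out. The 10 with the highest lower of the 2 ratios between dividing-like and other T barcodes were the histones *Hist1h2ae*, *H2afz* and *H2afv*, the tubulins *Tuba1b* and *Tubb5*, the chromatin proteins *Hmgn2*, *Dek*, *Nap1l1* and *Ptma*, and *Ran*, a GTPase of nuclear transport and spindle assembly. *Hist1h2ae* was 31.6-fold (17.0–58.0) higher in WT and 10.1-fold (8.43–12.1) in *A20ZF7*, and *Tuba1b* 13.1-fold (9.79–17.4) and 7.05-fold (6.32–7.86). *H2afz* was 5.20-fold and 3.53-fold higher. None of these genes was used to call a barcode dividing-like.

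In ILC-like barcodes 39 of the 40 genes were higher in *A20ZF7*, and 32 intervals lay above 1. Of 16 members with enough UMIs, 7 were at least 2-fold higher, *Mcm3*, *Mcm6*, *Pclaf*, *Mki67*, *Top2a*, *Cenpa* and *Stmn1*, and 0 lower, where 2.04% of 6,263 genes were at least 2-fold higher and 1.52% lower. Of these 7, *Pclaf*, *Mki67* and *Cenpa* were below 20 CPM in WT and entered through their *A20ZF7* level. The median log2 ratio was 0.75 for the 16 members and 0.0042 for all genes. Of the pathway lists, 0 of 10 replication and 0 of 4 mitosis genes with enough UMIs were past 2-fold in ILC-like barcodes. Their median log2 ratios were 0.43 and 0.49. Of the E2F and G1 cyclin genes 1 of 5 was at least 2-fold higher, *Cdk6* (2.82), and of the brakes 1 of 10, *Cdkn2d* (2.05). *Cdkn2d*, at 13.6 CPM in WT, entered through its *A20ZF7* level. *Pclaf* had 18 UMIs in WT and 207 in *A20ZF7*, 4.29 and 50.5 CPM, a ratio of 11.8 (7.26–20.2). *Tyms* went the other way, at 31.2 CPM in WT and 22.9 CPM in *A20ZF7* (ratio 0.734, 0.557–0.964), and *Pcna* and *Cks2* had ratios of 1.13 (0.983–1.30) and 1.02 (0.818–1.26). Licensing and synthesis genes had ratios of 1.74 and 1.56, cyclins and CDK 1.58 and chromosome structure genes 1.79. Centromere and kinetochore genes were at 3.07, spindle genes at 3.27 and the anaphase promoting complex at 3.89 (2.60–5.99). Summed over the list, the 15 S genes had a ratio of 1.64 (1.54–1.76) and the 25 G2/M genes 2.02 (1.91–2.12). Here *Hmgb2*, on the G2/M list, gave 41.1% of all members' UMIs in WT and 36.6% in *A20ZF7*, and the G2/M sum was not read without it.

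The dividing-like share of ILC-like barcodes was 0.944% (0.684–1.27, 43 barcodes) in WT and 4.04% (3.46–4.69, 165) in *A20ZF7*, a ratio of 4.28 (3.07–5.98). That ratio was 2.36 (2.02–2.75) with 2 members as the limit, 2.90 (2.24–3.74) at 1,000 UMIs and 7.91 (3.35–18.6) with naming by marker UMIs alone. In the ILC-like cluster with *Il13* and *Gata3*, genes of type 2 ILCs, it was 0.575% of 2,261 and 5.24% of 1,891, and in that with *Klrb1b* and *Csf2* 1.31% of 2,295 and 3.02% of 2,189. Markers of T cells moved with the ILC-like result, from 1,538 CPM in WT to 2,371 CPM in *A20ZF7* with all 12 genes above 0, while ILC markers were at 1,929 and 1,189 CPM. In *A20ZF7* dividing-like ILC barcodes ILC markers were at 885 CPM against 1,279 CPM in other ILC-like barcodes. T markers were there at 2,364 CPM (2,044–2,720) against 2,182 CPM (2,117–2,249), and these intervals overlap. The part of T cell RNA or of T cells in the ILC-like result was not tested.

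Stromal-like barcodes, which are fibroblast-, muscle- and endothelial-like, held all 40 genes at a higher level in *A20ZF7*, and 39 intervals lay above 1. Of 8 members with enough UMIs 5 were at least 2-fold higher and 0 lower, where 4.32% of 7,345 genes were at least 2-fold higher and 3.14% lower. Of these 5 members, *Mcm6*, *Pclaf*, *Top2a* and *Stmn1* were below 20 CPM in WT and entered through their *A20ZF7* level. *Mki67* was at 4.47 and 31.0 CPM, a ratio of 6.94 (5.05–9.77), and *Pcna* at 58.1 and 69.3 CPM, a ratio of 1.19 (1.07–1.33). The dividing-like share was 0.244% (0.147–0.380, 19 of 7,794) in WT and 2.15% (1.89–2.42, 252 of 11,744) in *A20ZF7*, a ratio of 8.80 (5.53–14.02). Without WT mouse 2 and the WT barcodes that had no hashtag call, that ratio was 3.96 (1.962–7.99). Of the 7,794 WT barcodes 5,263 had no call, and 0.152% of those were dividing-like. With 2 members as the limit the ratio was 4.30 (3.53–5.25). The share was 0.0611% and 1.47% in fibroblast-like, 0.531% and 3.17% in muscle-like and 0.642% and 4.81% in endothelial-like barcodes. These values leave out a cluster without a class name that had fibroblast markers at 12,546 CPM. There 1.11% of 1,174 WT and 7.65% of 3,189 *A20ZF7* barcodes were dividing-like.

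T cell markers moved with the dividing-like share of the stromal-like class too. They were at 509.9 CPM in WT and 1,573 CPM in *A20ZF7* stromal-like barcodes, and *Il17a* stood at 705 CPM in the latter, against 2,041 CPM in T-like barcodes. In *A20ZF7*, dividing-like stromal barcodes held T markers at 2,579 CPM (2,307–2,876) and stromal markers at 9,167 CPM, against 1,349 CPM (1,319–1,379) and 19,688 CPM in the other stromal-like barcodes. At least 2 T marker UMIs were found in 35.3% (29.4–41.6) of the former and 16.9% (16.2–17.6) of the latter. With barcodes that held at least 2 marker UMIs of another class removed, 0.0756% of WT (4 of 5,291) and 0.582% of *A20ZF7* stromal-like barcodes were dividing-like. The level ratio was then 1.82 (1.71–1.93). Barcodes with 1 marker UMI of another class stayed in. *Mki67* itself was found after thinning in 0.167% and 1.12% of stromal-like barcodes, with median depths of 1,050 and 1,035 UMIs, against 0.997% and 4.29% of T-like barcodes.

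**Figure D5:**
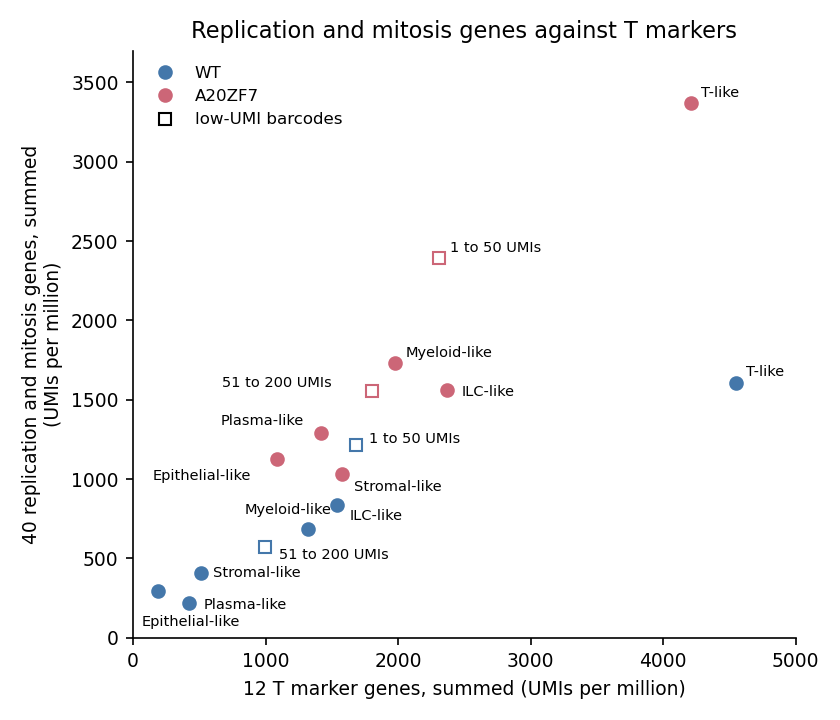
Summed level of the 40 genes against the summed level of 12 T cell marker genes, both in CPM, for each class (circles) and for barcodes with few UMIs (squares), WT in blue and *A20ZF7* in red, 1 library each. In each genotype the classes other than T-like lie at 2,371 CPM of T markers or less, and those with more T markers tend to hold more of the 40 genes.

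Per UMI of the 12 T markers, T-like barcodes held 0.354 UMIs of the 40 genes in WT and 0.8001 in *A20ZF7*. Barcodes with 1 to 50 UMIs held 0.722 and 1.04. In WT the other 5 classes held from 0.522 in myeloid-like to 1.59 in epithelial-like barcodes, and in *A20ZF7* from 0.656 in stromal-like to 1.03 in epithelial-like barcodes. Stromal-like and epithelial-like barcodes were thus the classes in which the 40 genes per T marker UMI were lower in *A20ZF7*, 0.656 against 0.803 and 1.03 against 1.59.

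Plasma-like barcodes held 30 of the 40 genes with an interval above 1, and 8 of 9 members with enough UMIs were at least 2-fold higher and 0 lower. Of these 8, all but *Hmgb2* were below 20 CPM in WT and entered through their *A20ZF7* level. Here 31.9% of 3,815 genes were at least 2-fold higher and 2.31% lower, and the median log2 ratio was 2.80 for the members and 0.75 for all genes, so genes at large were shifted upward in this class. Plasma markers stood at 240,151 and 184,827 CPM and T markers at 419 and 1,416 CPM. The dividing-like share was 0.472% (0.0572–1.69, 2 of 424) and 4.75% (3.50–6.28, 46 of 969), a ratio of 10.1 (2.45–41.3). It was 6.89 (0.903–52.6) with barcodes holding markers of another class removed. Without WT mouse 1 and the WT barcodes that had no hashtag call it was 4.46 (0.622–32.0). Both intervals take in 1. In *A20ZF7*, B lineage and plasma markers were at 105,087 CPM in dividing-like and 204,451 CPM in other plasma-like barcodes.

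In myeloid-like barcodes 22 intervals lay above 1, and 10 of 15 members with enough UMIs were at least 2-fold higher and 0 lower, where 2.91% of 6,744 genes were at least 2-fold higher and 2.19% lower. Of these 10, *Pclaf*, *Mki67*, *Top2a*, *Cenpa*, *Birc5* and *Ube2c* were below 20 CPM in WT and entered through their *A20ZF7* level. *Top2a* was at 17.7 and 91.7 CPM, a ratio of 5.20 (2.85–10.6), and *Pclaf* had 3 UMIs in WT and 183 in *A20ZF7*. The dividing-like share was 0.821% (0.224–2.09, 4 of 487) and 6.02% (4.91–7.30, 97 of 1,610), a ratio of 7.34 (2.71–19.8). Without WT mouse 1 and the WT barcodes that had no hashtag call it was 4.22 (1.05–16.9). With barcodes holding markers of another class removed it was 6.07 (0.805–45.7, 1 of 156 and 14 of 360), which takes in 1. T markers were at 1,316 CPM in WT and 1,975 CPM in *A20ZF7* myeloid-like barcodes. Myeloid and DC markers were at 2,763 CPM in *A20ZF7* dividing-like and 4,323 CPM in other myeloid-like barcodes, and T markers at 1,897 and 1,937 CPM.

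Epithelial-like barcodes numbered 79 in *A20ZF7*. Of the 40 genes 30 were higher and 8 lower in *A20ZF7*. UMIs in both genotypes, which an interval needs, were found for 31 genes, and 24 of these intervals lay above 1 and 0 below it. Of 2 members with enough UMIs, *Hmgb2* was at least 2-fold higher, at 98.5 and 332 CPM, and *Pcna* was not, at 71.0 and 69.6 CPM, where 17.0% of 2,862 genes were at least 2-fold higher and 12.0% lower. Dividing-like barcodes were 4 of 505 in WT (0.792%, 0.216–2.02) and 6 of 79 in *A20ZF7* (7.59%, 2.84–15.8), and 2 of 163 and 1 of 14 once barcodes with markers of another class were removed. T markers in this class were at 186 CPM in WT and 1,087 CPM in *A20ZF7*, and *Il17a* was at 503 CPM in *A20ZF7*. Enterocyte and crypt transcripts of this class differed between the 2 libraries. The 6 enterocyte genes summed to 55,676 CPM in WT and 9,758 CPM in *A20ZF7*, and the 7 crypt genes to 19.3 and 589 CPM. In *A20ZF7*, *Gkn3* alone gave 487 of the 589 CPM, and 5 of the 7 crypt genes were above 0. Crypt cells are known to divide, and the part of crypt cells or of T cell RNA in the result was not tested.

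T-like barcodes made up 60.7% (53.2–67.8) of the 183 classed dividing-like barcodes of WT and 74.2% (72.3–76.0) of the 2,191 of *A20ZF7*, against 25.1% and 40.8% of all classed barcodes. ILC-like barcodes made up 23.5% and 7.53%, against 24.8% and 13.1%, and stromal-like barcodes 10.4% and 11.5%, against 42.4% and 37.6%. In both genotypes the T-like class was thus over-represented and the stromal-like class under-represented. These shares are of barcodes that passed the same negative selection, not of cells in the tissue.

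Hashtag antibodies told the 2 WT mice apart, which gives the only spread between animals. The T-like level of the 40 genes was 1,506 CPM (1,443–1,572) in mouse 1, 1,867 CPM (1,795–1,941) in mouse 2 and 1,363 CPM in barcodes without a call, and the mice differed by a ratio of 0.807 (0.761–0.855). Their dividing-like T shares were 2.63% and 2.72%. All of these were below the *A20ZF7* values of 3,368 CPM and 12.7%. In ILC-like barcodes the mice stood at 889.7 and 836 CPM, in stromal-like at 554 and 517 CPM with 324 CPM in barcodes without a call, and in myeloid-like at 594 and 842 CPM. Without the 1,167 barcodes that passed in both libraries, the T-like level ratio was 2.07 (2.01–2.13) and the share ratio 5.23 (4.32–6.35).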

How the data were processed

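Single-cell RNA-Seq of lamina propria cells gave 1 library per genotype. The authors deposited UMI counts per gene and barcode, unfiltered, made with Cell Ranger 7.1 on mm10 and analysed with R 4.3.3 and Seurat 4.3 per the submitters' processing notes, although the file headers of both gene expression tables name a later Cell Ranger. WT had 576,003 barcodes with 35,289,432 UMIs and *A20ZF7* 612,069 with 54,587,004. The antibody tables deposited for both genotypes are identical and hold almost no counts of the *A20ZF7* hashtags (11,373 UMIs against 32,822,678 for WT), so they were used for WT alone.

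Barcodes were kept with at least 500 UMIs, 200 to 2,500 genes and at most 15% mitochondrial UMIs. WT barcodes with 2 hashtags (HTODemux, quantile 0.99) were removed, doublets of *A20ZF7* could not be, and no doublet caller was run. Clustering (R 4.3.3, Seurat 5.3.0; 2,000 variable genes, 30 components, resolution 0.8) left out 157 genes, the 40 members, the pathway lists and the Seurat cell cycle genes. Clusters were named from fixed markers, in a class whose marker list was at least 1,000 CPM. Clusters led by genes of other cells stayed unnamed where no own marker was among the 10 leading genes. The T-like cluster led by defensin genes was kept under this rule, since *Cd28* was among them. Clusters with more markers of another class than of their own among the 10 leading genes also stayed unnamed. These limits were fixed with the clusters in view. The members and lists were chosen with earlier results of these data known.

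Counts were summed over barcodes with Python 3.11.15, numpy 2.4.6, scipy 1.17.1, pandas 2.3.3 and matplotlib 3.10.9. CPM have exact Poisson intervals, ratios exact conditional ones, shares exact binomial ones and ratios of shares log-method ones, at 95%. Genes entered the comparison with all genes at a mean of at least 20 CPM and 10 UMIs expected per library. Named genes are all 40 members, the pathway genes past 2-fold with the 4 most UMIs per list, and the 10 other genes with the highest ratio and at least 20 UMIs in dividing-like T barcodes. Genes with Gm-number or Rik names and ribosomal and mitochondrial genes were left out of the choice of those 10. The ratio and thinning steps were tested on simulated data. Alternatives changed the UMI and gene limits, class naming, thinning, number of members, WT mouse and background. Where barcodes with markers of another class were removed, the limit was at least 2 marker UMIs of another class. T and ILC markers were not counted against each other, and *Igha*, *Jchain* and *Iglv1* were not counted. The deposited libraries give no replicates, so there is no test.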

Additional observations from a re-analysis of the deposited data

Results flagged for a closer look

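Barcodes in clusters that took no class name, which enter none of the comparisons, also held dividing-like barcodes: 0.932% (0.522–1.53) of 1,610 in WT and 6.32% (5.70–6.98) of 5,636 in *A20ZF7*. The level of the 40 genes over all these clusters was 643 CPM in WT and 1,801 CPM in *A20ZF7*. The largest of them held 1,174 WT and 3,189 *A20ZF7* barcodes and had fibroblast markers at 12,546 CPM. It stayed unnamed because *Mcpt1*, a mast cell marker, and no fibroblast marker was among its leading genes. In it 1.11% of WT and 7.65% of *A20ZF7* barcodes (244) were dividing-like. The difference between the genotypes in these clusters was not tested, since each genotype is 1 library.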

How the results depend on the processing

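Settings that left a level below 0, or no dividing-like WT barcode, gave no ratio and are not in the counts that follow. Of 146 values under alternative settings that gave a ratio, 145 kept a ratio above 1 and 96 moved by less than counting error. The one that turned was the ILC-like level with the level of barcodes of 51 to 200 UMIs taken off (0.0226, from 262 to 5.91 CPM), a setting chosen after the data were seen that gave 1.75 in T-like and 1.54 in myeloid-like barcodes and no positive level in plasma-, stromal- and epithelial-like barcodes. With the level of barcodes of 1 to 50 UMIs taken off, the T-like ratio was 2.48 and no other class kept a positive level. In each of those other classes *A20ZF7* then lay further below 0 than WT, with -380 CPM in WT and -830 CPM in *A20ZF7* for ILC-like barcodes. With a minimum of 1,000 UMIs the level ratio was 1.39 in T-like and 2.70 in stromal-like barcodes and the share ratio 2.20 in T-like and 3.05 in ILC-like, and thinning to 1,000 UMIs gave shares 2.22 and 2.90 times higher. With 2 or more members the share ratios were 2.92 in T-like, 2.36 in ILC-like and 4.30 in stromal-like barcodes. An upper limit of 5,000 genes gave a T-like level ratio of 2.02. With cell cycle scores for S and G2/M taken out before clustering, the level ratios were 1.41 (T-like), 1.73 (ILC-like), 2.81 (stromal-like) and 4.64 (epithelial-like) and the T-like share ratio 3.98, as the dividing cluster then fell outside the T-like class. With it counted as T-like the level ratio was 2.01. Naming by marker UMIs alone gave level ratios of 1.99 (T-like), 2.51 (ILC-like), 2.04 (myeloid-like), 2.62 (stromal-like) and 1.88 (epithelial-like) and an ILC-like share ratio of 7.91, and with WT hashtag doublets kept 2.58 (ILC-like), 2.02 (myeloid-like), 1.87 (epithelial-like) and 7.66. Removing barcodes with markers of another class gave level ratios of 3.98 (plasma-like), 2.27 (myeloid-like), 1.82 (stromal-like) and 1.67 (epithelial-like, 0.844–2.99). Without the dividing cluster the T-like level ratio was 1.91, without the cluster with defensin genes 1.75, with a share ratio of 3.69, and without *Hmgb2* 2.43, with 2.01 in ILC-like barcodes.

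Leaving out either WT mouse, with the barcodes that had no call, gave level ratios of 1.80 to 2.24 (T-like), 1.76 to 1.87 (ILC-like), 4.45 to 5.52 (plasma-like), 2.06 to 2.92 (myeloid-like), 1.86 to 2.0 (stromal-like) and 2.62 to 3.0 (epithelial-like), and stromal-like share ratios of 3.96 to 7.55. No share ratio could be given for plasma-like barcodes without WT mouse 2 or epithelial-like barcodes without WT mouse 1, where no WT barcode was dividing-like. No paired analysis was possible because each genotype is 1 pooled library. Where the cause of a change is not named it was not tested. Depth limits single genes, since a member with 11 WT UMIs has an interval of 2.74 to 10.2 around its ratio.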
